A study of Mus musculus with 9 samples.

Results

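The expression of 40 cell cycle genes was examined in meningeal lymphatic endothelial cells (MLECs), the cells that line the lymphatic vessels of the membranes around the brain. The genes were chosen by symbol from a list of S phase and G2/M genes, and all 40 were found among the 24321 genes of the deposited expression table. They fell into 15 S phase genes and 25 G2/M genes. MLECs came from the meninges of male mice that the labels give as 10 weeks old and that had received PBS (Control), GL261 glioma cells or B16 melanoma cells. GL261 is a mouse glioma line and B16 a mouse melanoma line, and both grow in C57BL/6 mice, the strain that the methods name. Each group had 3 RNA-seq libraries, and each library was made from 10 sorted cells of a pool of 6 mice. The cells were sorted as CD31+, CD45- and LYVE-1+ per the labels. The labels also give about 3 weeks after GL261 injection and about 2 weeks after B16 injection. By these times, tumor type and time cannot be told apart. The results of the study give 2 weeks for all groups, and its methods 2 to 3 weeks. Elsewhere the study gives PDPN in place of LYVE-1 as the lymphatic marker of the gate, and the labels and the methods differ on the route and the number of injected tumor cells. GL261 and B16 libraries together are called tumor-associated below.

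A cell that divides copies its DNA in S phase and separates the copies in mitosis, which follows G2. The S phase genes encode the machinery that licenses and fires replication origins and supplies nucleotides, and their transcription is driven largely by E2F factors. The G2/M genes encode the kinase CDK1, its cyclins, and the proteins of the spindle, the centromere and the anaphase-promoting complex, and they are repressed in resting cells by the DREAM complex, which binds the CHR element of their promoters. Most lymphatic endothelial cells of an adult are at rest, and they enter the cycle when lymphatic vessels sprout. Because division is a state of single cells, a library of 10 cells can hold some dividing cells or none.

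The promoter windows of 3 members show how the lists differ in sequence. They were taken from RefSeq (build GRCm38.p6, which is not the build of the expression values) and run from 250 bases before to 50 bases after the gene start. The windows are written 5′ to 3′ on the strand of the gene, with capitals for each match to the CHR (TTTGAA), the CCAAT box (CCAAT) or the E2F site (TTTCCCGC, TTTCGCGC, TTTGCCGC or TTTGGCGC), on either strand. Cdc20 (chr4:118437294-118437593, minus strand) and Ube2c (chr2:164769679-164769978, plus strand) are shown because both are G2/M genes with 1 CHR and several CCAAT boxes. Mcm5 (chr8:75109259-75109558, plus strand) is shown as an S phase gene with an E2F site and because its transcript passed the test described below.
Cdc20: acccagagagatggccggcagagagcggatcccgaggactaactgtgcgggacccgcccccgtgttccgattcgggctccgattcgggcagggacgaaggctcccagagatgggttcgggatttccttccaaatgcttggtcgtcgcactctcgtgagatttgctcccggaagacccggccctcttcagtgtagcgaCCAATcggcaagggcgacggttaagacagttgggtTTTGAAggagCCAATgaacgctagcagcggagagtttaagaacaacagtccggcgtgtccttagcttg
Ube2c: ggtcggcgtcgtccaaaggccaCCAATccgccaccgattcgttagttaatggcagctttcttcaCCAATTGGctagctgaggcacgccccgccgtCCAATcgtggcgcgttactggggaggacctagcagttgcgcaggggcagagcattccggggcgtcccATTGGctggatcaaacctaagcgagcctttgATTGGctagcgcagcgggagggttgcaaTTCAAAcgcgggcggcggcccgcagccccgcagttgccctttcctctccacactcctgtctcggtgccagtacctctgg
Mcm5: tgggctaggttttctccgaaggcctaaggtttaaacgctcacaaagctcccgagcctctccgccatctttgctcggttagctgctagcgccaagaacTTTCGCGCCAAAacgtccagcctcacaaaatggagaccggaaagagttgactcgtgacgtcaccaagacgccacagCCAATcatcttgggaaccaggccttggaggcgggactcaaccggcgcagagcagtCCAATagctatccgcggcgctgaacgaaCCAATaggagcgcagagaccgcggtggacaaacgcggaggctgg
A window was found for 32 of the 40 members. A CHR lay in 15 of 20 windows of G2/M genes (75.0%), in 1 of 12 windows of S phase genes (8.3%) and in 18.1% of all 27025 windows. An E2F site lay in 1 of 20 windows of G2/M genes (5.0%), in 6 of 12 windows of S phase genes (50.0%) and in 2.3% of all windows. CCAAT boxes lay in 90.0% of the G2/M windows, 66.7% of the S phase windows and 37.9% of all windows. The 12 bases in capitals in Mcm5 that hold its E2F site contain 2 overlapping matches, 1 on each strand. These are matches of letters, and no binding was measured.

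Expression was given as fragments per kilobase of transcript, scaled to the mapped reads (FPKM), a level per length that can be compared between genes, but no read counts accompanied it. Genes at or above 1 FPKM numbered 6604 to 7783 in the Control libraries, and in the tumor-associated libraries 7913 to 9141. The aligned reads of any Control library were also fewer than those of any tumor-associated library, so that sequencing depth and tumor status cannot be told apart in these 9 libraries. Tbp, a transcript of every cell, was listed at 0 in 2 Control libraries. A gene at 0 is therefore called listed at 0, and no absence is read from it. In these libraries of pooled cells, fewer cells of a kind and less RNA per cell cannot be told apart. Of the immune markers, Ptprc, which encodes CD45, and Cd3e, Cd3d, Nkg7 and Ms4a1 were listed at 0 in all 9 libraries, and the immune markers summed to 65.2 to 203 FPKM in Control MLECs, against 35.1 to 381 FPKM in tumor-associated MLECs. Of the 8 melanoma markers, Mlana, Tyr, Tyrp1, Mitf and Slc45a2 were listed at 0 throughout, and their sum was above 1 FPKM only in GL261 replicate 2, with 4.07 FPKM of Pmel. Of the 8 glioma and neural markers, Gfap and Sox2 were listed at 0 throughout, and the sum stayed at or below 0.795 FPKM in Control and ranged from 0 to 45.7 FPKM after tumor injection. The highest sum came from Fabp7, which had 45.7 FPKM in GL261 replicate 3 and was listed at 0 in the other 8 libraries. Of the 10 lymphatic markers, 9 had a lower mean log2 level in tumor-associated than in Control MLECs, and 4 passed limma's adjusted threshold of 0.05 as lower. In all 6 tumor-associated libraries 7 were below every Control library, whereas Pecam1 was above. Of the 9955 genes tested with limma, 442 were below every Control library in this way and 605 above. Lyve1 (628 to 1895 FPKM) and Pdpn (32.0 to 372 FPKM) were present in every library. Flt4, the receptor VEGFR3, ranged from 174 to 220 FPKM in Control libraries, against 40.1 to 106 FPKM after tumor injection. Prox1, the transcription factor of lymphatic identity, had 20.9 to 42.2 FPKM in Control libraries, 16.5 FPKM in GL261 replicate 3 and between 1.87 and 3.72 FPKM in the remaining GL261 and B16 libraries. At the same time 8 of 10 blood endothelial markers passed the same threshold as higher in tumor-associated libraries, and 1, Aqp1, passed as lower. Each Control library held 537 FPKM or more of Aqp1, and each GL261 and B16 library 236 FPKM or less. The part of these markers in the values below was not tested.

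More of the 40 cell cycle genes reached 1 FPKM in each tumor-associated library than in any Control library, which is also the order of the numbers of detected genes given above. Over the 25 G2/M genes, 1, 2 and 4 reached 1 FPKM in Control replicates 1, 2 and 3, whereas 11, 17 and 24 did so in the GL261 libraries and 16, 9 and 8 in the B16 libraries. Over the 15 S phase genes the numbers were 5, 8 and 4 in Control, 13, 13 and 14 in GL261 and 9, 8 and 10 in B16 libraries. The G2/M numbers did not overlap between Control and tumor-associated libraries, and the S phase numbers of B16 replicate 2 and Control replicate 2 were equal. GL261 replicate 3 was not the library with the most detected genes (8098 of 24321, against 9141 in GL261 replicate 2), and it held 38 of the 40 cell cycle genes at or above 1 FPKM.

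**Figure D1:**
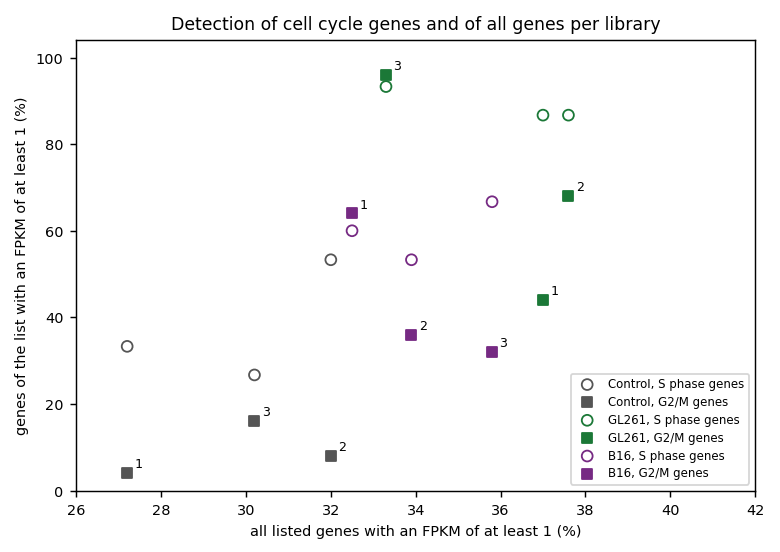
Share of the S phase genes (open circles) and of the G2/M genes (filled squares, numbered by replicate) with an FPKM of at least 1 in each library, against the same share of all listed genes. The G2/M genes of Control libraries lie at 4% to 16%, those of tumor-associated libraries at 32.0% to 96.0%, and GL261 replicate 3, at 33.3% of all genes, has the highest G2/M share.

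As a level, the mean log2(FPKM + 1) over the 25 G2/M genes was 0.23, 0.37 and 0.65 in Control, 1.46, 2.47 and 4.08 in GL261 and 2.93, 1.30 and 1.06 in B16 libraries, in replicate order. Every tumor-associated library was thus above every Control library, and the means with SD over 3 libraries were 0.42 ± 0.21 for Control, 2.67 ± 1.32 for GL261 and 1.76 ± 1.01 for B16. The mean over the 15 S phase genes was 1.40, 1.71 and 1.15 in Control, 3.21, 3.21 and 4.20 in GL261 and 2.52, 1.61 and 2.29 in B16 libraries. All GL261 libraries were above the others, whereas B16 replicate 2 lay between Control libraries. Here the group means, again with SD over 3 libraries, were 1.42 ± 0.28 for Control, 3.54 ± 0.57 for GL261 and 2.14 ± 0.48 for B16. The S phase mean exceeded the G2/M mean in 8 libraries, and B16 replicate 1 was the exception, with a G2/M mean 0.40 higher on the log2 scale. These means describe the lists and carry no test.

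**Figure D2:**
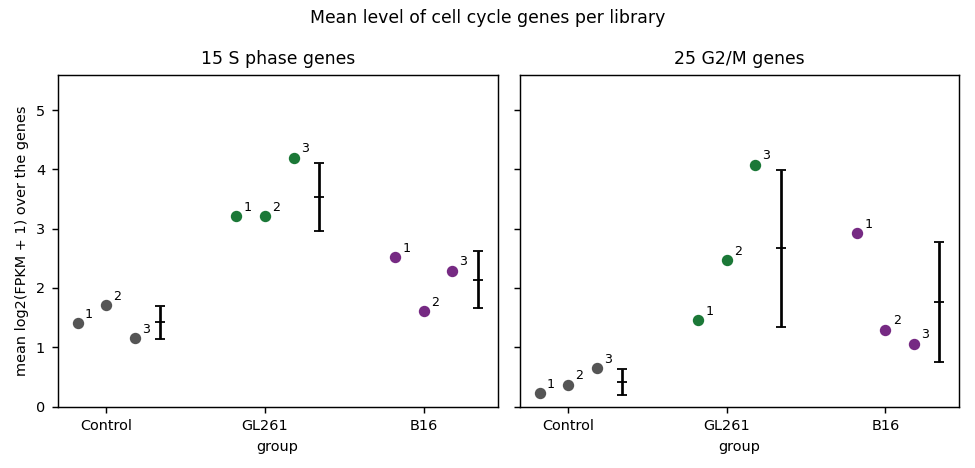
Mean log2(FPKM + 1) over the 15 S phase genes (left) and the 25 G2/M genes (right) in each library, numbered by replicate, with the group mean and SD beside the points (n = 3 per group). GL261 replicate 3 is the highest library in both panels, at 4.20 and 4.08, and no tumor-associated library reaches down to Control in the G2/M panel.

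The libraries of a tumor differed from each other as well. GL261 replicate 3, the library with Fabp7, had the highest value of all 9 libraries for 29 of the 40 members (72.5%), 18 of them G2/M genes, whereas it was highest for 10.7% of the 13553 genes above 0 in any library. B16 replicate 1 was highest for 7 members, 6 of them G2/M genes, and the remaining 4 maxima lay in Control replicate 1 (Mcm6), Control replicate 3 (Pcna), GL261 replicate 1 (Ccne1) and GL261 replicate 2 (Bub1b). B16 replicate 3 was highest for none. Without GL261 replicate 3, a choice made after seeing the data, 39 of the 40 members had a higher mean in the other tumor-associated libraries than in Control. The median difference over the members was 1.07, against 1.32 with it. All Control libraries were at 0 for 21 of the 40 members, which count as higher at any value above 0. Kif11, for example, counts on 0.0266 FPKM in GL261 replicate 2. The count of 39 therefore says little about these members.

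**Figure D3:**
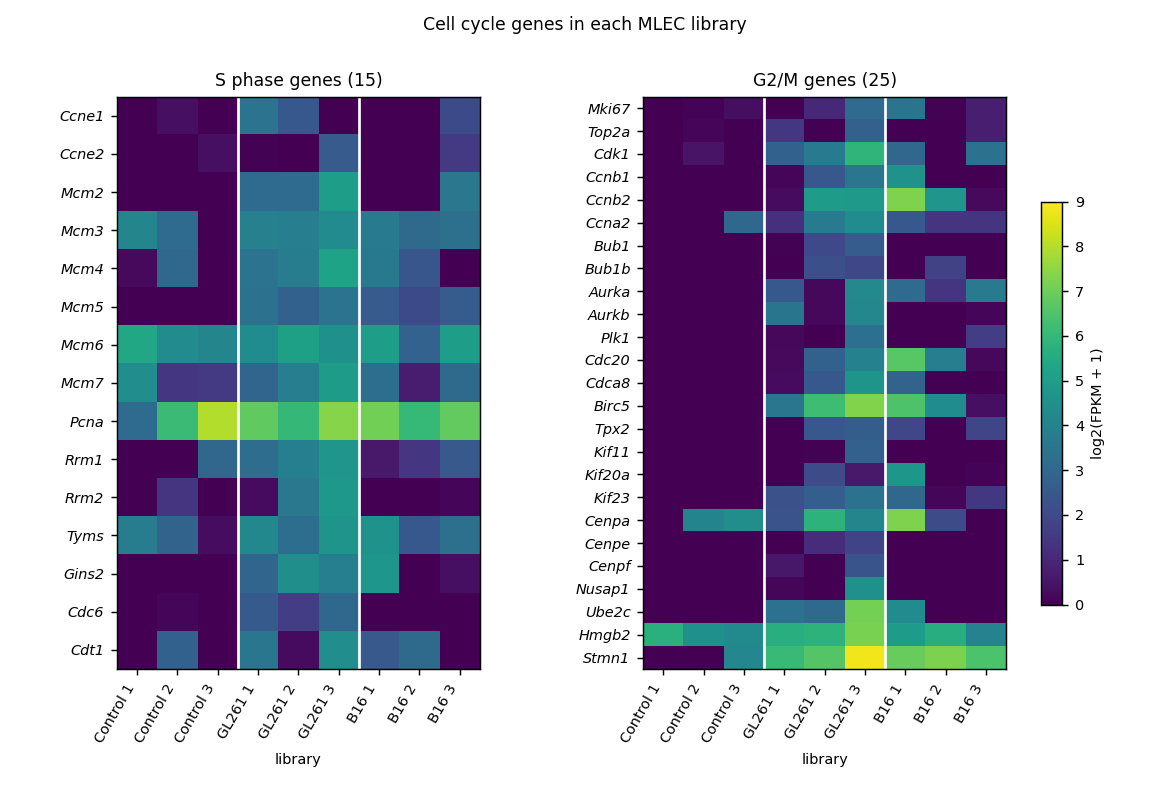
Level of each S phase gene (left) and G2/M gene (right) as log2(FPKM + 1) in each of the 9 libraries, with white lines between the Control, GL261 and B16 groups. Most G2/M genes are at 0 in the Control columns, Pcna, Mcm6 and Hmgb2 are present in all 9 libraries, and the GL261 replicate 3 column holds the most filled cells.

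The S phase genes are described in the order in which their products act. Cdc6 and Cdt1 load the MCM helicase onto origins. Cdc6 was listed at 0, 0.12 and 0 FPKM in Control, had 4.81, 2.11 and 7.16 FPKM in GL261 and was listed at 0 in all B16 libraries. The GL261 libraries were all above the others, and the difference of GL261 from Control was 2.35 on the log2(FPKM + 1) scale (standard error 0.60, adjusted p = 0.0561, limma), which did not pass the threshold. It passed without a filter on low values (adjusted p = 0.0368, limma) and without a trend in the variance (adjusted p = 0.0473, limma). Cdt1 overlapped between the groups, with 0 to 5.89 FPKM in Control, while GL261 libraries ranged from 0.19 to 20.1 FPKM and B16 libraries from 0 to 7.58 FPKM.

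The helicase itself is a ring of 6 MCM proteins. Mcm5 (chr8:77633427-77652338, mm9) stood at 0 in each of the 3 Control libraries and had 9.51, 5.87 and 9.72 FPKM in GL261 and 5.05, 3.07 and 5.12 FPKM in B16 libraries. Its groups did not overlap, and Mcm5 rose by 2.81 in tumor-associated MLECs on the log2(FPKM + 1) scale (standard error 0.65, adjusted p = 0.0309, limma with Benjamini-Hochberg adjustment over 9955 genes). The exact permutation test over the 84 divisions of the libraries gave p = 0.0119, the smallest it can give. The adjusted p of Mcm5 lay between 0.0565 and 0.0761 without any 1 of Control replicates 1, 2 and 3, GL261 replicates 1 and 2 or B16 replicate 3, at differences of 2.69 to 2.84. In GL261 alone Mcm5 rose by 3.20 (standard error 0.73, adjusted p = 0.0363, limma), and the call was lost without any 1 Control or GL261 library (adjusted p = 0.0616 to 0.132, limma, differences 3.09 to 3.41) and without a filter on low values (adjusted p = 0.0531, limma). Because its Control level is 0, the size of the difference depends on the pseudocount, and it was 5.91 with a pseudocount of 0.1. For the same reason Mcm5 could enter the test only through tumor-associated libraries. Its p-values and its lack of overlap carry that limit.

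Mcm2 was also at 0 in each Control library, and had 7.91, 7.84 and 31.7 FPKM in GL261 but 0, 0 and 11.0 FPKM in B16 libraries. All GL261 libraries were above Control, without a call (difference 3.78, standard error 1.05, adjusted p = 0.0801, limma). Mcm4 had 0.18, 7.28 and 0 FPKM in Control, 9.75, 12.7 and 36.5 FPKM in GL261 and 11.6, 4.33 and 0 FPKM in B16 libraries, so that its GL261 libraries, but not all of its B16 libraries, stood above Control. Mcm6 was present in every library and had similar group means. Its FPKM was 40.3, 19.1 and 16.1 in Control, 19.7, 33.3 and 22.1 in GL261 and 32.4, 6.04 and 31.3 in B16 libraries, which gives 25.2 ± 13.2 FPKM (SD, n = 3) for Control and 24.1 ± 10.5 FPKM (SD, n = 6) for tumor-associated MLECs. It was the single member whose mean log2 level was not higher in tumor-associated MLECs (difference -0.12, standard error 0.60, adjusted p = 0.943, limma). Mcm3 (0 to 16 FPKM in Control, 7.67 to 19.1 FPKM with tumors) and Mcm7 (1.69 to 20.5 and 0.61 to 30.5 FPKM) overlapped as well. Mcm7 lies across Cops6 and Ap4m1 on the opposite strand and holds the miRNA genes Mir25, Mir93 and Mir106b, and since strand use in counting was not stated, reads of these genes cannot be separated from its own.

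Gins2, a subunit of the GINS complex that activates the helicase, was listed at 0 in every Control library and had 6.66, 21.4 and 13.9 FPKM in GL261 and 25.7, 0 and 0.28 FPKM in B16 libraries. The 3 GL261 libraries and B16 replicate 1 were high, and the joint difference of 2.74 did not pass the threshold (standard error 1.10, adjusted p = 0.200, limma). Ccne1 and Ccne2 encode the E cyclins that start S phase with CDK2. Ccne1 reached 9.76 and 4.64 FPKM in GL261 replicates 1 and 2 and 3.05 FPKM in B16 replicate 3, and was at most 0.31 FPKM in the other libraries. Ccne2 was above 1 FPKM only in GL261 replicate 3 (4.96 FPKM) and B16 replicate 3 (1.87 FPKM), too few libraries for the test.

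Rrm1 and Rrm2 encode the subunits of ribonucleotide reductase, which makes deoxynucleotides, and Tyms encodes thymidylate synthase. Rrm1 had 0, 0 and 6.78 FPKM in Control, 8.20, 13.7 and 24.9 FPKM in GL261 and 0.52, 1.68 and 4.67 FPKM in B16 libraries, so that each GL261 library exceeded each Control and each B16 library. Rrm2, the subunit that limits the enzyme, had 0, 1.61 and 0 FPKM in Control, 0.20, 11.2 and 26.7 FPKM in GL261 and at most 0.11 FPKM in B16 libraries. GL261 replicates 2 and 3 were thus its only libraries above 2 FPKM. Tyms was found in every library, from 0.23 to 12.9 FPKM in Control and from 4.59 to 24.1 FPKM in tumor-associated MLECs, and its groups overlapped. Pcna, the sliding clamp of the polymerases, is also used in DNA repair. It had 7.85, 68.5 and 246 FPKM in Control, 110, 62.0 and 164 FPKM in GL261 and 136, 64.3 and 113 FPKM in B16 libraries. Its highest and its lowest value were both in Control libraries, and the mean was 107 ± 124 FPKM (SD, n = 3) in Control and 108 ± 39.9 FPKM (SD, n = 6) in tumor-associated MLECs. The annotation lists 2 pseudogenes of Pcna, with which reads could be shared.

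The engine of mitosis is CDK1 with the B cyclins. Cdk1 (chr10:68799383-68815686, mm9) had 0, 0.40 and 0 FPKM in Control, 5.98, 12.5 and 58.3 FPKM in GL261 and 6.87, 0 and 9.62 FPKM in B16 libraries. It was above Control in 5 of 6 tumor-associated libraries, with B16 replicate 2 at 0. The difference was 2.98 (standard error 1.04, adjusted p = 0.140, limma) and, of the alternatives run, passed the threshold only without B16 replicate 2 (3.61, adjusted p = 0.0438, limma). Ccnb2, which encodes cyclin B2, was listed at 0 in Control and had 0.20, 30.3 and 27.5 FPKM in GL261 and 152, 24.6 and 0.17 FPKM in B16 libraries. The annotation lists a pseudogene of Ccnb2, with which reads could be shared. The groups did not overlap, although GL261 replicate 1 and B16 replicate 3 held less than 1 FPKM (difference 3.71, standard error 1.39, adjusted p = 0.171, limma; exact permutation p = 0.0476). Ccnb1, for cyclin B1, was likewise listed at 0 in Control, with 0.13, 4.41 and 10.6 FPKM in GL261 and 23.5, 0 and 0 FPKM in B16 libraries. Ccna2, whose cyclin A2 acts in both phases, had 0, 0 and 7.04 FPKM in Control, 1.32, 12.4 and 19.9 FPKM in GL261 and 4.54, 1.54 and 1.61 FPKM in B16 libraries, so that its groups overlapped through Control replicate 3.

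Cdc20 and Ube2c, whose promoters are printed above, encode the activator and the E2 enzyme of the anaphase-promoting complex, which destroys cyclin B. Cdc20 (chr4:118105506-118109957, mm9) was listed at 0 in Control and had 0.17, 5.91 and 14.6 FPKM in GL261 and 99.1, 13.4 and 0.14 FPKM in B16 libraries. As for Ccnb2, GL261 replicate 1 and B16 replicate 3 were below 1 FPKM and B16 replicate 1 was highest. The difference was 2.94 (standard error 1.25, adjusted p = 0.224, limma; exact permutation p = 0.0476). Ube2c was listed at 0 in Control, had 9.35, 7.58 and 137 FPKM in GL261 and 19.1, 0 and 0 FPKM in B16 libraries, and its difference was 2.99 (standard error 1.34, adjusted p = 0.251, limma). Both genes overlap a neighbor on the other strand, Cdc20 with Elovl1 and Ube2c with Tnnc2. So do Ccna2 (Exosc9), Kif20a (Cdc23), Nusap1 (Oip5), Ccne2 (Ints8), Tyms (Gm17448) and Gins2 (Gm20388 and Gse1). Cdt1 overlaps Gm20388, and Stmn1 a miRNA gene, on the same strand.

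Birc5, Aurkb and Cdca8 encode survivin, Aurora B and borealin, subunits of the chromosomal passenger complex that corrects attachments of chromosomes to the spindle. Birc5 (chr11:117710565-117717069, mm9) was listed at 0 in every Control library and had 10.5, 73.4 and 155 FPKM in GL261 and 89.5, 20.0 and 0.30 FPKM in B16 libraries. The groups did not overlap, and the lowest tumor-associated library was B16 replicate 3. The difference was 4.72 (standard error 1.25, adjusted p = 0.0555, limma; exact permutation p = 0.0238) between tumor-associated and Control MLECs and 5.68 (standard error 1.42, adjusted p = 0.0525, limma) between GL261 and Control. Without B16 replicate 3 the joint difference was 5.58 (adjusted p = 0.00657, limma). Leaving out a B16 library cannot change the GL261 difference, only the estimate of spread that the groups share. Without B16 replicate 3 the standard error was 1.037 (adjusted p = 0.0199, limma), and without B16 replicate 1 it was 1.245 (adjusted p = 0.0359, limma). Birc5 passed in only 2 of 18 alternatives of the joint comparison and in 4 of 17 for GL261. Without GL261 replicate 3 the adjusted p for GL261 was 0.191 (limma). Its partners were also listed at 0 in Control but appeared in fewer libraries. Aurkb was above 1 FPKM in GL261 replicates 1 and 3 (10.2 and 17.0 FPKM), and Cdca8 in GL261 replicates 2 and 3 (4.53 and 24.2 FPKM) and B16 replicate 1 (6.33 FPKM). No library other than GL261 replicate 3 had all 3 subunits above 1 FPKM.

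Of the mitotic kinases, Aurka (Aurora A, which matures the centrosomes) was listed at 0 in Control, and had 4.62, 0.15 and 17.8 FPKM in GL261 and 7.94, 1.59 and 12.1 FPKM in B16 libraries. Its groups did not overlap (difference 2.53, standard error 0.89, adjusted p = 0.142, limma; exact permutation p = 0.0357). Tpx2, which activates Aurora A on the spindle, was listed at 0 in Control and lay between 2.68 and 5.24 FPKM in the 4 tumor-associated libraries where it was above 0. Plk1 was above 1 FPKM only in GL261 replicate 3 (8.72 FPKM) and B16 replicate 3 (2.11 FPKM). Bub1 and Bub1b, kinases of the spindle checkpoint, were listed at 0 in Control and stayed at or below 5.08 FPKM, with Bub1 above 1 FPKM in GL261 replicates 2 and 3 and Bub1b in these and in B16 replicate 2.

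Kif23, a kinesin of the cleavage furrow, was the motor found most widely. It was listed at 0 in Control and had 3.68, 5.43 and 9.21 FPKM in GL261 and 7.33, 0.083 and 1.77 FPKM in B16 libraries. The groups did not overlap, and the difference was 2.15 (standard error 0.77, adjusted p = 0.150, limma; exact permutation p = 0.0357). Kif20a was high in B16 replicate 1 alone (25.9 FPKM), with 3.30 FPKM in GL261 replicate 2 and at most 0.53 FPKM elsewhere. Kif11, the motor that separates the spindle poles, and Nusap1, a microtubule bundler, were above 1 FPKM only in GL261 replicate 3, with 5.93 and 22.1 FPKM. The same library alone held more than 1 FPKM of the kinetochore gene Cenpf (4.11 FPKM), and it held 2.61 FPKM of Cenpe, which had 1.19 FPKM in GL261 replicate 2 and was listed at 0 elsewhere. Cenpa, the centromeric histone, was present in Control, with 0, 15.5 and 20.8 FPKM, and had 3.93, 56.0 and 16.2 FPKM in GL261 and 154, 3.25 and 0 FPKM in B16 libraries. Its groups overlapped fully, since B16 replicates 1 and 3 were the highest and, with Control replicate 1, the lowest.

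Mki67, which encodes Ki-67, the protein most often stained to count cycling cells, was at most 0.25 FPKM in Control and had 0, 0.99 and 7.91 FPKM in GL261 and 10.0, 0.027 and 0.68 FPKM in B16 libraries. Only GL261 replicate 3 and B16 replicate 1 were clearly above Control. Top2a, the topoisomerase that untangles chromosomes, was at most 0.10 FPKM in Control and reached 1.77 and 5.85 FPKM in GL261 replicates 1 and 3. Neither gene had 1 FPKM in 3 libraries, so neither was tested.

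Stmn1 and Hmgb2 peak in G2/M but are also transcribed in other states. Stmn1 (chr4:134024235-134029758, mm9) encodes stathmin, which destabilizes microtubules and is switched off at mitosis by phosphorylation. It had 0, 0 and 17.1 FPKM in Control, 67.2, 95.2 and 444 FPKM in GL261 and 119, 149 and 86.6 FPKM in B16 libraries. Every tumor-associated library was at least 67.2 FPKM and above every Control library. Stmn1 rose by 5.62 on the log2(FPKM + 1) scale (standard error 0.88, adjusted p = 0.00293, limma; exact permutation p = 0.0119), and it passed in each tumor on its own, by 5.77 in GL261 (standard error 1.06, adjusted p = 0.0133, limma) and by 5.47 in B16 (adjusted p = 0.0237, limma). Leaving out any 1 library kept the call in the joint comparison, where the difference was 4.92 or more. In the comparisons of single tumors it was lost without GL261 replicate 2 or 3 (adjusted p = 0.0502 and 0.0654, limma) for GL261, and without Control replicate 1 or 2 or any B16 library for B16 (adjusted p = 0.0522 to 0.0952, limma). Without a filter on low values it was lost in both (adjusted p = 0.0531 for GL261 and 0.0884 for B16, limma), and with a pseudocount of 0.1 in B16 (adjusted p = 0.0549, limma). Hmgb2, a chromatin protein, was present in all libraries, with 51.9, 21.7 and 18.1 FPKM in Control, 49.8, 54.8 and 146 FPKM in GL261 and 30.0, 47.4 and 14.8 FPKM in B16 libraries. Only GL261 replicates 2 and 3 exceeded the highest Control library, and the difference was 0.71 (standard error 0.63, adjusted p = 0.581, limma).

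Across all genes, differences between tumor-associated and Control MLECs were tested with limma on the 9955 genes that reached 1 FPKM in 3 or more libraries. Of the 40 members 29 were tested, 14 S phase and 15 G2/M genes. Ccne2, Mki67, Top2a, Bub1, Aurkb, Plk1, Kif11, Kif20a, Cenpe, Cenpf and Nusap1 were too seldom detected. A gene listed at 0 in Control could enter the test only through tumor-associated libraries. The adjusted threshold of 0.05 was passed by 2 members as higher, Stmn1 and Mcm5, beside 2.90% of all genes tested, and by 0 as lower, beside 1.02% of all genes. At an unadjusted p under 0.05 limma gave 11 members as higher, beside 12.7% of all genes, and 0 as lower, beside 6.32%. For GL261 against Control, the members called were again Stmn1 and Mcm5, beside 2.58% of all genes called higher and 0.904% called lower. For B16 against Control it was Stmn1, beside 1.61% of all genes called higher and 0.502% called lower. No member was called lower in either tumor. At an unadjusted p under 0.05 limma gave 13 members as higher in GL261, beside 11.4% of all genes, and 6 in B16, beside 9.95%, and 0 as lower in each, beside 5.53% and 5.04% of all genes. These comparisons share the Control libraries. With log2 aligned reads as a covariate, 0 members passed in any of these comparisons (limma), and the estimates were 7.07 for Stmn1 (adjusted p = 0.0900, limma) and 2.35 for Mcm5 (adjusted p = 0.479, limma) in the joint comparison.

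The direction was counted over all 40 members, tested or not. The mean log2 level was higher in tumor-associated MLECs for 39 members. It was also higher for 5695 of the 9955 genes tested and for 8156 of the 13553 genes above 0 in any library. The median difference over the members was 1.32, beside 0.20 over all genes tested and 0.15 over all genes above 0. Every tumor-associated library was above every Control library for 7 members (17.5%), Mcm5, Birc5, Ccnb2, Aurka, Cdc20, Kif23 and Stmn1, beside 6.08% of the genes tested and 4.50% of the 13553 genes above 0. Of 14 housekeeping genes, 3 (21.4%) were likewise above every Control library, and 3 were called higher by limma. In GL261 all 40 members had a higher mean than in Control, beside 5727 of the 9955 genes tested and 7637 of the 13553 above 0. The median difference was 1.82, beside 0.23 over all genes tested. All 3 GL261 libraries stood above Control for 18 members (45.0%), beside 13.7% of the genes tested and 10.9% of the genes above 0, and for 6 of the 14 housekeeping genes (42.9%). Limma called 4 of the 14 as higher. In B16 31 members had a higher mean, 4 a lower and 5 an equal mean of 0. A higher mean was also found for 5677 of the 9955 genes tested and 7079 of the 13553 above 0. The median difference was 0.92, beside 0.20 over all genes tested. All B16 libraries stood above Control for 7 members (17.5%), beside 10.2% of the genes tested and 7.73% of the genes above 0, and for 3 of the 14 housekeeping genes (21.4%), with 2 of the 14 called higher and 1 lower. The part of this shift of housekeeping genes in the members' values was not tested. Such separation is easier for genes at 0 in Control. All 3 Control libraries were at 0 for 21 of the 40 members, and for 20.8% of the genes above 0. Such a gene cannot have a lower mean after tumor injection, so that direction was closed in advance for these 21 members.

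**Figure D4:**
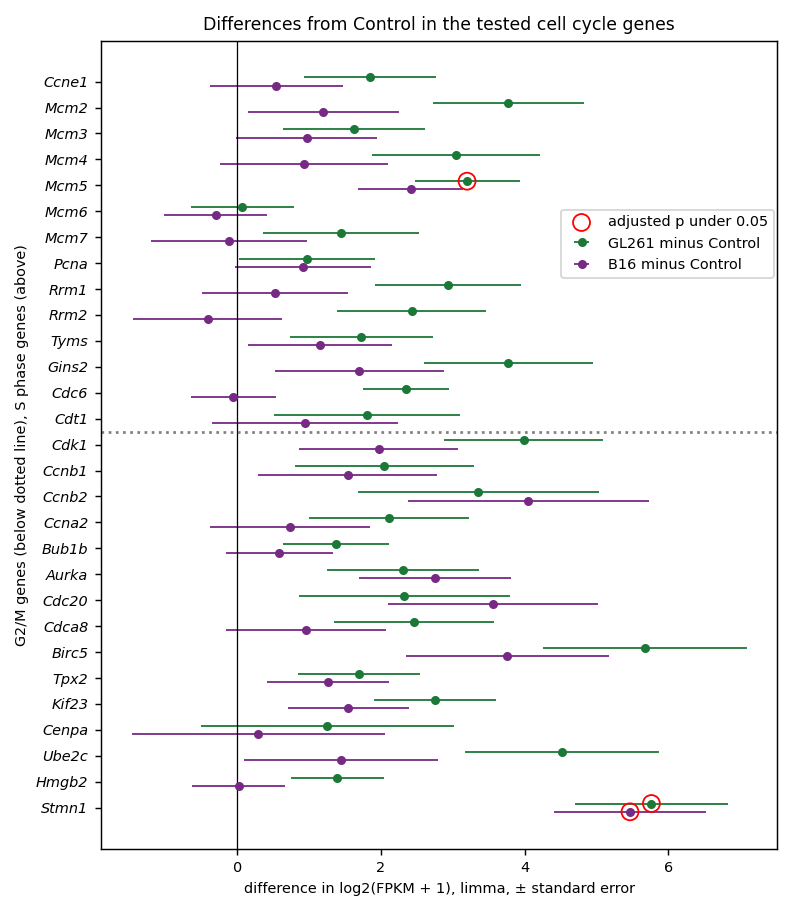
Difference from Control in log2(FPKM + 1), with its standard error from limma (n = 3 libraries per group), for the 29 tested members in GL261 (green) and B16 (purple), with S phase genes above the dotted line. Red circles mark an adjusted p under 0.05, reached by Mcm5 in GL261 and by Stmn1 in both tumors.

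Between the tumors, the members were more often higher in GL261 than in B16, but no member passed the test of that difference. The G2/M means of GL261 replicates 1 and 2 (1.46 and 2.47) lay within the B16 range (1.06 to 2.93). Only GL261 replicate 3 (4.08) lay above it. The S phase means of all GL261 libraries (3.21 to 4.20) were above those of B16 (1.61 to 2.52). A higher mean in GL261 was found for 35 of 40 members, all 15 S phase genes among them, beside 5035 of the 9955 genes tested. The median difference was 0.99, beside 0.01 over all genes tested. Limma called 0 members at the adjusted threshold, beside 0.0100% of all genes, and 5 members (of the 29 tested) at an unadjusted p under 0.05, all higher in GL261, where 3.29% of all genes reached it as higher and 2.21% as lower. By limma these 5 were Cdc6 (difference 2.40, adjusted p = 0.317), Rrm2 (2.84, adjusted p = 0.762), Mcm2 (2.58, adjusted p = 0.835), Rrm1 (2.42, adjusted p = 0.861) and Ube2c (3.08, adjusted p = 0.879). The members with a higher mean in B16 were all G2/M genes, and included Ccnb2, Cdc20 and Aurka, at GL261 minus B16 differences of -0.70, -1.23 and -0.44 without a call. All GL261 libraries were above all B16 libraries for 8 members (20.0%), beside 7.13% of the genes tested and 5.81% of the genes above 0. An exact permutation test of 3 libraries against 3 cannot give a p under 0.1.

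Other genes of the cycle were read in the same way from 4 further lists, beside the same 12.7% of all genes higher and 6.32% lower at an unadjusted p under 0.05. Of 30 other S phase genes, 23 were tested and 0 passed for tumor-associated against Control MLECs (limma), with 3 higher and 2 lower at an unadjusted p under 0.05 and a median difference of 0.56 over the list. Rfc4, a subunit of the clamp loader that places PCNA, was listed at 0 in Control and had 31.3, 7.99 and 23.4 FPKM in GL261 and 0, 0 and 3.85 FPKM in B16 libraries. It passed in GL261 alone (difference 4.26, adjusted p = 0.0236, limma), and not without Control replicate 1 or 3 or GL261 replicate 1 or 3 (adjusted p = 0.0566 to 0.0947, limma), without a filter (adjusted p = 0.0571, limma) or with aligned reads as a covariate (difference 3.20, adjusted p = 0.762, limma). Like Mcm5, Rfc4 could enter the test only through tumor-associated libraries. Rfc4 overlaps Eif4a2 on the other strand. The S phase genes with the highest levels were Gins4, Rfc2 and Slbp, and none passed. Gins4 went down, at a difference of -1.66 (adjusted p = 0.13, limma). Its highest tumor-associated library (34.1 FPKM) was just below its lowest Control library (34.3 FPKM). Of the 30 genes, 2 were below every Control library in all 6 tumor-associated libraries, and 0 were above. Of the 9955 genes tested, 442 were below and 605 above, and of the 13553 genes above 0 in any library 463 and 610. Of 40 other G2/M genes, 17 were tested and 0 passed (limma), with 3 higher and 1 lower at an unadjusted p under 0.05 and a median difference of 0.81. Their mean log2 level was 0.70 to 1.00 in Control, ranged from 1.28 to 3.12 in GL261 and lay between 1.07 and 1.89 in B16 libraries, and GL261 replicate 3 was again highest, with 31 of the 40 genes at or above 1 FPKM. The most abundant were H2afz, Pttg1 and Cks2, and none passed.

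Upstream of S phase, of 17 regulators of G1 14 were tested and 1 passed as higher, with a median difference of 0.48. This was Ccnd3, which encodes the D cyclin that activates CDK4 and CDK6 together with its relatives. Ccnd3 had 21.4, 51.1 and 33.1 FPKM in Control, 111, 138 and 122 FPKM in GL261 and 99.4, 152 and 210 FPKM in B16 libraries, without overlap. The gene lies across Bysl on the opposite strand. Ccnd3 rose by 1.99 (standard error 0.38, adjusted p = 0.0107, limma; exact permutation p = 0.0119), and it kept its call in the joint comparison without any 1 library but not with aligned reads as a covariate (difference 1.76, adjusted p = 0.351, limma). In the single tumors it passed in GL261 (1.86, adjusted p = 0.0424, limma) and in B16 (2.12, adjusted p = 0.0343, limma), and these calls were lost in 13 and in 10 of 17 alternatives. Cdk4 (58.7 to 285 FPKM) and Myc (4.94 to 143 FPKM) overlapped between the groups. Of 15 inhibitors of the cycle, CDK inhibitors and pocket proteins among them, 14 were tested and 0 passed (limma), with 1 higher and 1 lower at an unadjusted p under 0.05 and a median difference of 0.07. Cdkn1a, whose product p21 holds cells in G1 and G2, had 0.73, 133 and 37.4 FPKM in Control, 235, 256 and 150 FPKM in GL261 and 510, 211 and 262 FPKM in B16 libraries. All 6 tumor-associated libraries exceeded the 3 Control libraries, at a difference of 3.61 that did not pass (adjusted p = 0.0584, limma). Btg1 and Tob1, the other abundant inhibitors, had 33.4 to 56.2 and 24.7 to 90.9 FPKM and overlapped between the groups.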

How the data were processed

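MLECs were profiled by RNA-seq in 3 Control, 3 GL261 and 3 B16 libraries of 10 cells after 18 cycles of amplification. The authors aligned trimmed reads to mm9 with TopHat2 2.0.12 and deposited FPKM from Cufflinks 2.2.1, without counts or normalization between libraries. The gene annotation is not given in the sources used here, and neither depth nor counting error can be had from FPKM. Groups and replicate numbers came from the labels. The replicates are pools of different mice, and no library repeated another (Pearson r across genes 0.65 to 0.87 over 9 pairs of replicates).

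The 9955 genes that reached 1 FPKM in 3 or more libraries entered limma 3.58.1 (R 4.3.3, lmFit, eBayes with a trend) on log2(FPKM + 1), with Benjamini-Hochberg adjustment at 0.05. GL261 and B16 were joined for tumor-associated against Control, and single tumors were compared in a fit of 3 groups. The scale understates differences of low genes. Permutation tests were two-sided and exact, over the 84 divisions into 3 and 6 libraries, and their p-values were not adjusted. The fit was tested on simulated data for tumor-associated against Control. It called 1 of 200 genes with a true log2 difference of 1.5 and 88 of 200 with 3. A gene that did not pass may therefore still differ. The 40 members and all gene lists were chosen with earlier results of these data known. All members were named, and of the other cell cycle lists the genes called in any comparison and the 3 with the highest mean. Gene positions are those of GENCODE M1 (mm9). Alternatives were another pseudocount, rescaled or quantile-normalized values, other filters, no trend, a replicate block, aligned reads as a covariate and leaving out each library. Figures and summaries used Python 3.11.15 with pandas 2.3.3 and matplotlib 3.10.9.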

Additional observations from a re-analysis of the deposited data

Results flagged for a closer look

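Among 43 values examined for a library far from the other tumor-associated libraries, 4 stood apart. Of normally distributed values about 1 in 20 would. In each case the gap to the nearest of the 6 tumor-associated libraries, as a share of their range of log2(FPKM + 1), exceeded Dixon's critical value for 6 libraries. GL261 replicate 3 was the high library for Kif11 (share 0.986, 5.93 FPKM), Nusap1 (share 0.970, 22.1 FPKM) and Cenpf (share 0.752, 4.11 FPKM). This is the library with 45.7 FPKM of Fabp7 and, of the tumor-associated libraries, with the highest Prox1, and the part of either in these values was not tested. B16 replicate 2 was the low library for Mcm6 (share 0.683, 6.04 FPKM). Kif11, Nusap1 and Cenpf were each listed at 0 in 4 of the 6 tumor-associated libraries. With most values at 0, the rate of 1 in 20 does not apply to these genes.

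Cdc6 was above its Control mean in all GL261 libraries (2.11 to 7.16 FPKM) and below it in all B16 libraries, where it was listed at 0, a difference between the tumors of 2.40 on the log2 scale. The Control mean rests on 0.119 FPKM in replicate 2, so the B16 side is a step from a value close to 0. Limma gave the difference between the tumors an adjusted p of 0.317.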

How the results depend on the processing

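Of the counts of called members, 2 for tumor-associated MLECs became 1 at a mean FPKM of at least 10 and with a replicate block, and 0 with aligned reads as a covariate. Without single libraries it was 1 to 3. For GL261, 2 became 1 without a filter, where Cdc6 was called and Stmn1 and Mcm5 were not, and 1 with the replicate block and 0 with the covariate, and 0 to 5 without single libraries. For B16, 1 became 0 with a pseudocount of 0.1, without a filter and with the covariate, 2 without a trend, and 0 to 1 without single libraries. Between the tumors it stayed 0 in each alternative. The count of 1 in the other cell cycle lists became 2 with quantile normalization or without a trend and 0 with the covariate, and 1 to 2 without single libraries. With quantile normalization or without a trend, the added gene was Pole, an S phase gene that was lower after tumor injection. Pole had 5.01 FPKM or more in each Control library, and its highest GL261 or B16 value was 1.87 FPKM. The gene added without Control replicate 1 was Orc6, and without Control replicate 2 Cdkn1a, both higher. Except for fewer genes or libraries tested, the causes were not tested. The replicate numbers did not pair the libraries, since same-numbered deviations correlated at -0.033 to 0.044, and under the block Stmn1 remained called.

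The mean difference of the S phase genes, 1.42, was 2.56 with a pseudocount of 0.1, and that of the G2/M genes, 1.80, was 3.40, since a smaller pseudocount stretches values near 0. The mean number of members at or above a limit of 1 FPKM was 17.33 higher in tumor-associated libraries, and at a limit of 10 FPKM 8.17 higher. Rescaling moved the median of all genes from 0.20 to 0.05 and quantile normalization to 0.03, and the calls of Stmn1 and Mcm5 held under both.

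Signs turned for genes that had no call. With the covariate Ccne1 became -1.28, Mcm2 -0.01, Rrm2 -0.82 and Cdc6 -0.52. Without single libraries Mcm6 ranged from -0.37 to 0.27 (0.27 without Control replicate 1, 0.22 without B16 replicate 2), Pcna from -0.35 to 2.05 and Cenpa from -0.64 to 1.58, the lower ends of both without Control replicate 1. Depth differs between the groups, so a member listed at 0 in Control may lie under what those libraries could show.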
